A study of Mus musculus with 6 samples.

Results

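The transcriptional coactivators YAP (Yap1) and TAZ (Wwtr1), their DNA-binding partners Tead1 to Tead4 and 4 widely used target genes, Ccn1, Ccn2, Ankrd1 and Amotl2, were examined in mouse kidney tubular cells in which Glis2 had been stably knocked down. All probes annotated to these 10 genes were taken, which gave 21 of the 45281 probes on the array and 10 of 19057 genes. The 6 arrays were of immortalized proximal tubular cells of C56BL/6 background, all infected with lentivirus and harvested on day 7. In 3 of them, the Glis2 knockdown arrays, the cells carried a short hairpin RNA against Glis2, and in the other 3, the control arrays, one against GFP. Separate infections or cultures are not stated for the replicates, nor is the number of hairpins or of clones, and the p-values therefore cover the variation among these arrays alone, part or all of which may be technical.

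In the Hippo pathway, a cascade of the MST and LATS kinases phosphorylates YAP and TAZ and keeps them out of the nucleus. When the cascade is less active, YAP and TAZ enter the nucleus and bind TEAD proteins, which recognise the sequence GGAATG in regulatory DNA. Much of the control of YAP and TAZ is therefore exerted on the proteins and not on the abundance of their transcripts. In kidney tubules the pathway is known for roles in epithelial growth, in repair after injury and in cystic and fibrotic disease.

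Each value below is an array intensity on a linear scale that still contains background, and fold changes are knockdown over control on the log2 scale. A probe was called when limma's p-value, adjusted over all 45281 probes by the Benjamini-Hochberg method, was under 0.05. A probe whose mean over the 6 arrays was under 137, the background limit estimated from the arrays, was taken as under background. Glis2 itself fell on both of its probes, with log2 fold changes of -0.55 ± 0.089 and -0.36 ± 0.090 (SE, n = 3 arrays each; limma's adjusted p = 7.16e-05 and 0.00577). Their means were 169 and 161 in the knockdown, against 247 and 206 in control, so background makes up much of each value. With the most frequent intensity subtracted as background, the log2 fold changes were -1.26 and -1.01. Under that setting the second probe, ILMN_2745305, was not called (limma's adjusted p = 0.0318 and 0.179). Of 9 proximal tubule markers measured, only Aqp1 and Mme were above the limit, and both fell. Aqp1 had means of 365 in the knockdown and 9760 in control. Mme had 118, under the limit on every knockdown array, against 855 in control. The other 7 had means under the limit and were not called. The list summed to between 1241 and 1462 on the knockdown arrays, against 10813 to 12387 on the control arrays. Most of the knockdown sum is background. Of 22 markers of other renal, stromal, endothelial and blood cells, 5 were above the limit (Slc12a1, Slc12a3, Atp6v1b1, Podxl and Dcn), of which Podxl rose by 0.39 and Dcn fell by 0.98 on the log2 scale. The fibroblast list summed to between 697 and 746 in the knockdown, against 844 to 885 in control. Of its 6 genes Dcn alone was above the limit, with means of 139 and 275, so most of each sum is background. Pdgfra, Pdgfrb, Col1a1, Pecam1, Cdh5 and Ptprc had means under the limit. The part of these marker differences in the results below was not tested. In a bulk sample, fewer cells of a type and less RNA per cell cannot be told apart.

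Of the 21 probes, 10 rose in the knockdown, 1 fell and 10 were not called. Over all probes of the array 15.6% were called, 7.84% higher and 7.76% lower, and over the 18034 probes above background 37.6% were called, 18.9% higher and 18.7% lower. Higher calls were thus more frequent among the 21 probes than in either background and lower calls were not, although 6 of the 10 genes had several probes, which are not independent. By the brightest probe of each gene, 4 of the 10 genes rose and 1 fell. Of all genes above background, read in that way, 20.8% rose and 21.5% fell. The 10 genes were chosen with earlier results of these data known, so these shares are descriptive only. Of the 21 probes, 19 were above background. The median log2 fold change was 0.22 over the 21 probes and 0.0003 over all probes. By the brightest probe of each gene it was 0.14 over the 10 genes and -0.005 over all genes above background. The knockdown and control arrays did not overlap on 12 of the 21 probes, against 26.3% of all probes and 48.5% of those above background. By gene, Ccn1 rose most, Tead2, Ankrd1 and Amotl2 rose less, Wwtr1 had probes that moved in opposite directions, and no probe of Yap1, Tead1, Tead3 or Ccn2 was called.

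**Figure D1:**
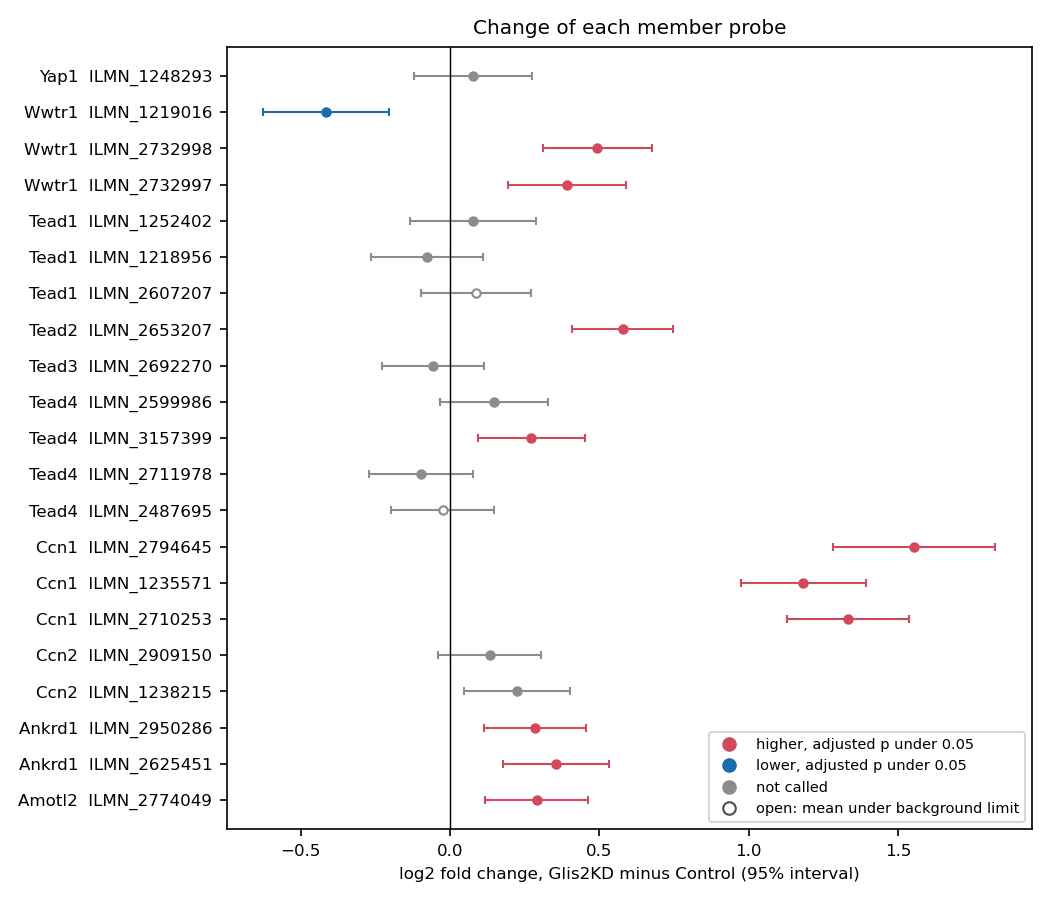
Log2 fold change of each of the 21 probes, Glis2 knockdown minus control, with 95% intervals from limma; red probes were higher, blue lower, grey not called, and open circles mark means under the background limit. The 3 Ccn1 probes lie between 1.18 and 1.56, and the Wwtr1 probes lie on both sides of 0.

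Yap1, which encodes YAP, was measured by 1 probe, ILMN_1248293. Its intensities were 1042, 983 and 935 on the knockdown arrays, against 824, 1083 and 912 on the control arrays. The knockdown arrays lay inside the range of the control arrays. The log2 fold change was 0.08 with a 95% interval from -0.12 to 0.28 (limma's adjusted p = 0.749), so these arrays leave room for a change in the Yap1 transcript of between 0.920 and 1.21 times the control level.

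Wwtr1, which encodes TAZ, gave a contradictory picture across its 3 probes, all annotated to the same transcript. The probe ILMN_1219016 had 3183, 3170.1 and 3008 on the knockdown arrays, against 4363, 4804 and 3427 on the control arrays. Every knockdown array was below every control array, and the probe fell by 0.41 ± 0.10 on the log2 scale (SE; limma's adjusted p = 0.00499). The probe ILMN_2732998 had 351, 390.5 and 406 on the knockdown arrays, against 294, 253 and 269 on the control arrays. Here every knockdown array was above every control array, and the probe rose by 0.49 ± 0.088 (limma's adjusted p = 0.000217). The remaining probe, ILMN_2732997, had 272, 298 and 309 against 259, 209 and 204 in control and rose by 0.39 ± 0.095 (limma's adjusted p = 0.00451). Within each array, the log2 ratio of ILMN_2732998 to ILMN_1219016 was -3.18, -3.02 and -2.89 in the knockdown, against -3.89, -4.25 and -3.67 in control. That difference of 0.91 had a two-sided exact permutation p = 0.1, the smallest that 3 against 3 arrays allow. The pair was chosen after its values were seen. Each probe already separated the groups, in opposite directions, so this p was fixed beforehand and adds no support. Of 3822 genes with more than 1 probe above background, 29 (0.759%) had probes called in opposite directions. The 3822 include genes with at most 1 called probe, which could not disagree. Among genes with several called probes the share is therefore higher. The places of the 3 probes along the transcript were not analysed here, and no direction is given for Wwtr1 as a gene. The fall of ILMN_1219016 was not called without control replicate 2 (log2 fold change -0.31, limma's adjusted p = 0.0547), and with the most frequent intensity subtracted as background none of the 3 probes was called, although the log2 fold changes, -0.43, 0.77 and 0.72, were no smaller (limma's adjusted p = 0.235, 0.0501 and 0.189).

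Among the TEAD factors, which bind DNA and carry YAP or TAZ to their targets, Tead2 changed most. Tead2 is best known from early mouse development. Its probe ILMN_2653207 had 6245, 6451 and 6189 on the knockdown arrays, against 3984, 4268 and 4409 on the control arrays. The groups lay far apart compared with their spread, with means of 6295 ± 138 in the knockdown and 4221 ± 217 in control (SD, n = 3 each). This was a 1.49-fold rise, or 0.58 ± 0.081 on the log2 scale (SE; limma's adjusted p = 1.22e-05). It was called under all 16 alternatives run, in which it ranged from 0.42 to 0.61, the lowest value being that relative to neighbouring genes on chromosome 7, which had a median of 0.17.

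Tead1, a broadly expressed family member, had 2 probes above the background limit, and neither was called. The probe ILMN_1252402 had 3144, 2714 and 3125 on the knockdown arrays, against 2468, 3352 and 2741 on the control arrays, and ILMN_1218956 had 976, 905 and 817, against 869.7, 956 and 1020.35 in control. The groups overlapped on both. Their 95% intervals ran from -0.13 to 0.29 and from -0.26 to 0.11 on the log2 scale (limma's adjusted p = 0.770 and 0.731). The 50 genes nearest to Tead1 had a median log2 fold change of 0.25, and relative to them ILMN_1218956 was called lower, at -0.31 (limma's adjusted p = 0.0152). The third probe, ILMN_2607207, was under the limit on every array. The log2 ratio of the Tead2 probe to ILMN_1252402 was higher by 0.50 in the knockdown than in control, with a two-sided exact permutation p = 0.1. This pair was chosen after its values were seen. The Tead2 probe alone already separated the groups, and 0.1 is the smallest p that this number of arrays allows. The p of this ratio therefore adds no support beyond the rise of Tead2 itself.

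Tead3 was at the edge of detection. Its probe ILMN_2692270 had 136, 146 and 135 in the knockdown, against 148, 137 and 148 in control, close to the limit of 137 on every array, and its difference of -0.06 was not called (limma's adjusted p = 0.799). Tead4, known in mouse for its part in forming the first epithelium of the embryo, had 4 probes, of which 3 were above the limit. The probe ILMN_3157399 had 257, 236 and 259 on the knockdown arrays, against 198, 198 and 228 on the control arrays. These groups did not overlap, and the probe rose by 0.27 ± 0.086 (SE; limma's adjusted p = 0.0327). The brighter probe ILMN_2599986 had 312, 351 and 361, against 330.5, 291 and 302 in control, overlapped between groups and was not called at 0.15 ± 0.087 (limma's adjusted p = 0.364). The probe ILMN_2711978 had 131, 125 and 146, against 142, 144 and 143 in control, near the limit, and was not called (limma's adjusted p = 0.605), and ILMN_2487695 was under the limit on every array. The rise of ILMN_3157399 was not called without control replicate 1, control replicate 2, knockdown replicate 1 or knockdown replicate 3 (limma's adjusted p = 0.143, 0.135, 0.101 and 0.117), nor with the most frequent intensity subtracted, where its log2 fold change was 0.55 (limma's adjusted p = 0.167). Its call was also lost after normexp correction and with an intensity trend and robust eBayes (limma's adjusted p = 0.0875 and 0.0741).

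**Figure D2:**
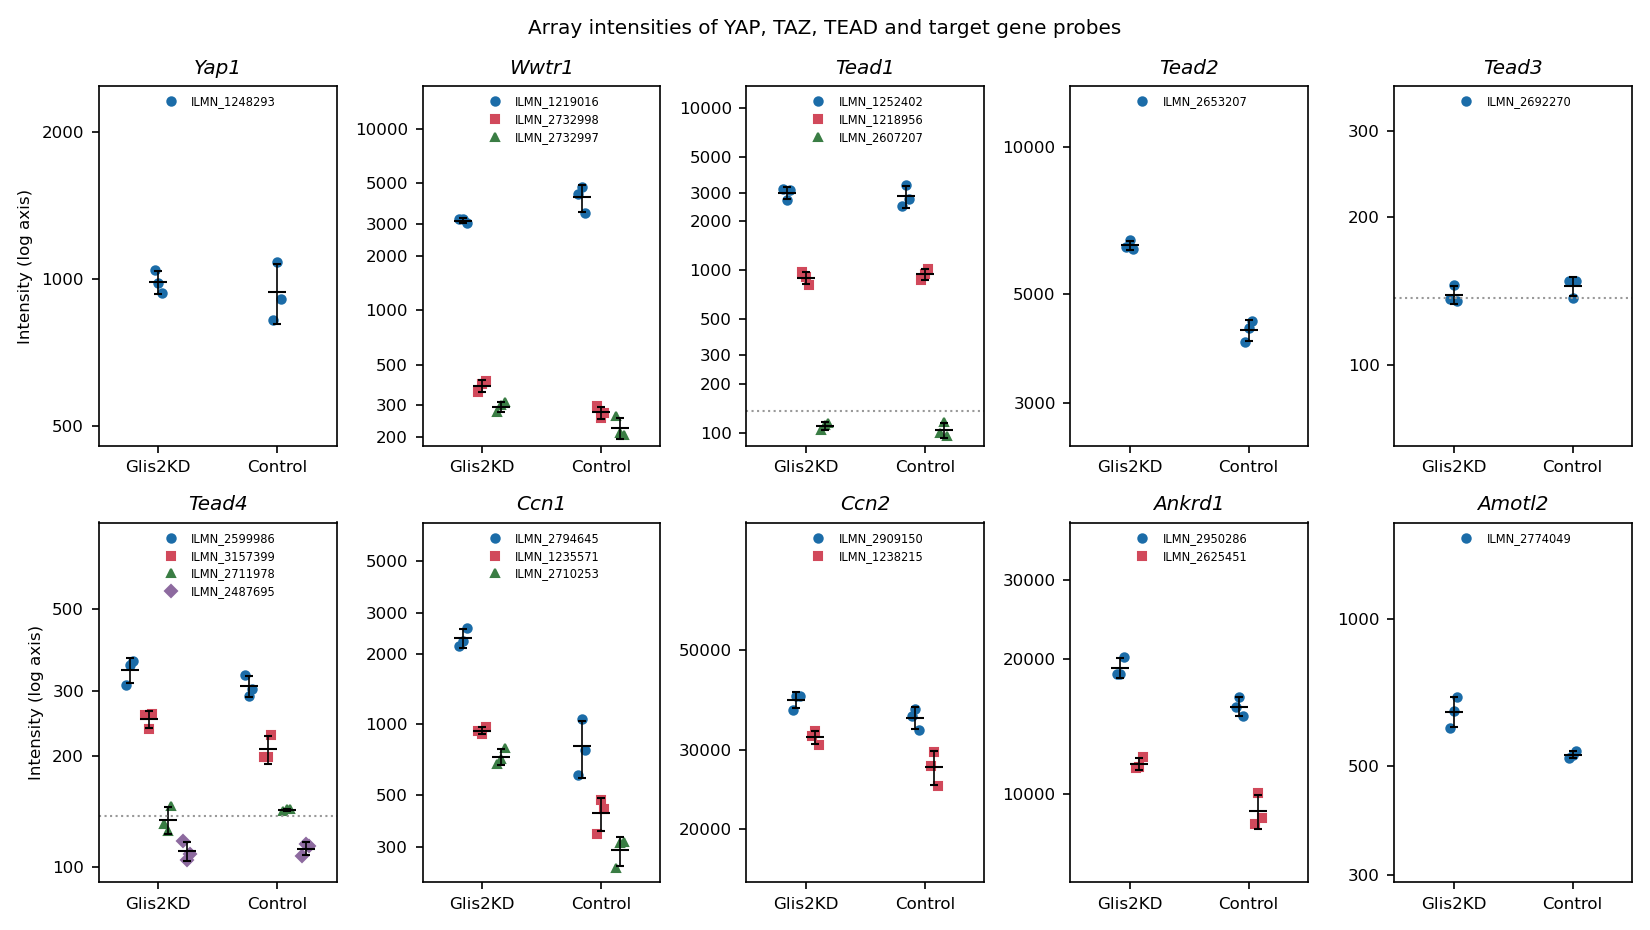
Intensity of each probe on each array (log axis), with Glis2 knockdown left of control in every panel; symbols mark probes, black bars the mean and SD of 3 arrays, and the dotted line, drawn where values come near it, the background limit of 137. Knockdown and control points are fully separated for all 3 probes of Ccn1 and for Tead2, and they overlap for Yap1 and Tead1.

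The 4 target genes encode secreted and cytoplasmic proteins that are commonly read as reporters of YAP and TAZ activity. The RefSeq promoter table (GRCm38.p6, 250 bases before to 50 after the transcription start) held windows for 7 of the 10 genes, among them Ccn1, Ankrd1 and Amotl2. These 3 are shown because they are the target genes that rose, and each carries the TEAD recognition sequence near its start. Capitals mark GGAATG or, where it lies on the opposite strand, its reverse complement CATTCC. The windows are chr3:145649936-145650235 on the minus strand for Ccn1, chr19:36119795-36120094 on the minus strand for Ankrd1 and chr9:102717554-102717853 on the plus strand for Amotl2, all written 5′ to 3′ along the gene.
Ccn1: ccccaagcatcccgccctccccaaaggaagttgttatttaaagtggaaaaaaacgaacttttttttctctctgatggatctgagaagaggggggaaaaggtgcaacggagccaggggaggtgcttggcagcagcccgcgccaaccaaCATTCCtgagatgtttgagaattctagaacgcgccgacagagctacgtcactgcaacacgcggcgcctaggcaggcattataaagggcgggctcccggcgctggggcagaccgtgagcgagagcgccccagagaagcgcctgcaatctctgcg
Ankrd1: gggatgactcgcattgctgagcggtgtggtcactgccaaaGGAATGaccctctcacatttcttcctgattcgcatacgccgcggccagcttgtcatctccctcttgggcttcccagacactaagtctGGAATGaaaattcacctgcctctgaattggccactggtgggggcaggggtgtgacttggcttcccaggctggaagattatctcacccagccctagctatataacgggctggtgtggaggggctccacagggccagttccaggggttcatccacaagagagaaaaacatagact
Amotl2: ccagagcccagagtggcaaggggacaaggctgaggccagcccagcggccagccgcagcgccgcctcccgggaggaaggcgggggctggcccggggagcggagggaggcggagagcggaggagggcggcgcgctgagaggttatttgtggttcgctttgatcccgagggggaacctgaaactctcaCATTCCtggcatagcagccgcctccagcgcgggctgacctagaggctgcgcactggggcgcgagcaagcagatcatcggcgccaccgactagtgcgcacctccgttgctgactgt

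The Ccn1 window held 1 match, on the strand opposite to the gene, from base -103 to -98 counted from the transcription start. Ankrd1 held 2 matches on the strand of the gene, from -210 to -205 and from -123 to -118, and Amotl2 held 1 on the opposite strand, from -65 to -60. Counting both strands, GGAATG occurred in a window of 6 of the 7 genes (Yap1, Wwtr1, Tead3, Ccn1, Ankrd1 and Amotl2) and of 16.6% of the 27025 genes in the table. The 7 genes had 10 windows, and a gene counted if any window held a match. Since Ccn1, Ankrd1 and Amotl2 were listed as known targets, these shares do not measure an enrichment. Ccn1, Ankrd1 and Amotl2 rose and held a match, Tead2 rose and its window held 0 matches, and Yap1 and Tead3, which held a match, were not called. Ccn2, Tead1 and Tead4 had no window. Whether a match bears on the changes was not tested. Neither the AP-1 sequence TGANTCA, which 8.97% of genes held, nor the CArG box of serum response factor, which 1.81% held, occurred in a window of the 7 genes. A match describes these letters only, and binding was not measured.

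Ccn1, also called Cyr61, encodes a secreted matricellular protein that signals through integrins. It rose on all 3 of its probes. The probe ILMN_2794645 had 2165, 2267 and 2571 on the knockdown arrays, against 609, 1053 and 775 on the control arrays. The lowest knockdown array was above the highest control array by a wide margin, although the control arrays themselves differed more than the knockdown arrays did (means 2334 ± 211 and 812 ± 224; SD, n = 3 each). The rise was 2.94-fold, with a 95% interval from 2.44 to 3.55 (limma's adjusted p = 6.04e-09).

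On the probe ILMN_1235571 of Ccn1 the intensities were 939, 913 and 972 in the knockdown, against 342, 476 and 437 in control, a 2.27-fold rise (limma's adjusted p = 7.86e-09). On ILMN_2710253 they were 679, 711 and 789, against 243, 311 and 314 in control, a 2.52-fold rise (limma's adjusted p = 7.52e-10). On each probe control replicate 1 was the lowest of all arrays. The folds on the deposited scale include background in both groups: with the most frequent intensity of 113 taken off both means, they became 3.18, 2.71 and 3.48. All 3 probes were called under every alternative run, and the 50 genes nearest to Ccn1 had a median log2 fold change of -0.01.

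Ccn2, also called Ctgf, is the closest relative of Ccn1 among these genes and a known driver of fibrosis. It was not called on either probe. The probe ILMN_2909150 had 36865, 39604 and 39604 on the knockdown arrays, against 35741, 37027 and 33160.2 on the control arrays, so that the lowest knockdown array lay within the control range. Its log2 fold change was 0.13 with a 95% interval from -0.04 to 0.30 (limma's adjusted p = 0.402), which puts the ratio of knockdown to control between 0.973 and 1.24. The probe ILMN_1238215 had 32144.5, 32999 and 30751, against 27608, 29710.5 and 24977 in control. These groups did not overlap, and the log2 fold change was 0.22 ± 0.086 (SE; limma's adjusted p = 0.0918).

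The call of ILMN_1238215 of Ccn2 was gained with an offset of 50 before the log2 step and with an intensity trend and robust eBayes (limma's adjusted p = 0.0468 and 0.0383). Both Ccn2 probes lay near the top of the array's range, with 0.190% and 0.305% of probes brighter, and scanner saturation was not analysed here. Among the 500 brightest probes 34.6% were called, against 37.6% of all probes above background. Those 500 reach to lower intensities than the Ccn2 probes, so this share cannot show whether the Ccn2 signal was saturated. Set against Ccn2 within each array, the log2 ratio of ILMN_2794645 of Ccn1 to ILMN_2909150 of Ccn2 was -4.09, -4.13 and -3.95 in the knockdown and -5.88, -5.14 and -5.42 in control, a difference of 1.42 with a two-sided exact permutation p = 0.1. For Ccn1 against the Ankrd1 probe ILMN_2950286 the difference was 1.27, also with an exact permutation p = 0.1. Over the 4 probe pairs compared in this way, which were chosen after their values were seen, the adjusted exact permutation p was 0.1 each. That is the smallest p that this number of arrays allows. The Ccn1 probe alone already separated the groups, so the p-values of the Ccn1 ratios add no support beyond the rise of Ccn1 itself.

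Ankrd1 encodes a nuclear and sarcomeric ankyrin repeat protein that responds to mechanical load. It was higher on both probes, by a small amount. The probe ILMN_2950286 had 18465, 18540.4 and 20186 on the knockdown arrays, against 15628, 16428 and 14900.5 on the control arrays. The groups did not overlap, and the rise was 1.22-fold, with a 95% interval from 1.08 to 1.37 (limma's adjusted p = 0.0190). The probe ILMN_2625451 had 11430.1, 11488 and 12111, against 8564, 10066 and 8828 in control, a 1.28-fold rise with all knockdown arrays above all control arrays (limma's adjusted p = 0.00440). ILMN_2950286 was not called when control replicate 1 or 3 or knockdown replicate 3 was left out (limma's adjusted p = 0.0559, 0.0830 and 0.0989), nor relative to neighbouring genes (log2 fold change 0.22, limma's adjusted p = 0.0694). With the most frequent intensity subtracted neither probe was called (limma's adjusted p = 0.0651 and 0.0732), nor after normexp correction (limma's adjusted p = 0.168 and 0.102), with log2 fold changes of 0.29 and 0.36 under both settings.

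Amotl2 encodes an angiomotin, a junctional scaffold that binds YAP and holds it in the cytoplasm, and is itself a YAP target. Its probe ILMN_2774049 had 600.2, 649.8 and 691 on the knockdown arrays, against 520.5, 527 and 538 on the control arrays. The control arrays were close together and all below the knockdown arrays, and the rise was 1.22-fold, with a 95% interval from 1.08 to 1.38 (limma's adjusted p = 0.0172). It was not called when control replicate 1 or knockdown replicate 2 or 3 was left out (limma's adjusted p = 0.0624, 0.0521 and 0.0995), nor with the most frequent intensity subtracted, where its log2 fold change was 0.36 against 0.29 as reported (limma's adjusted p = 0.0651). Its call was also lost after normexp correction, at 0.35 on the log2 scale (limma's adjusted p = 0.107).

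**Figure D3:**
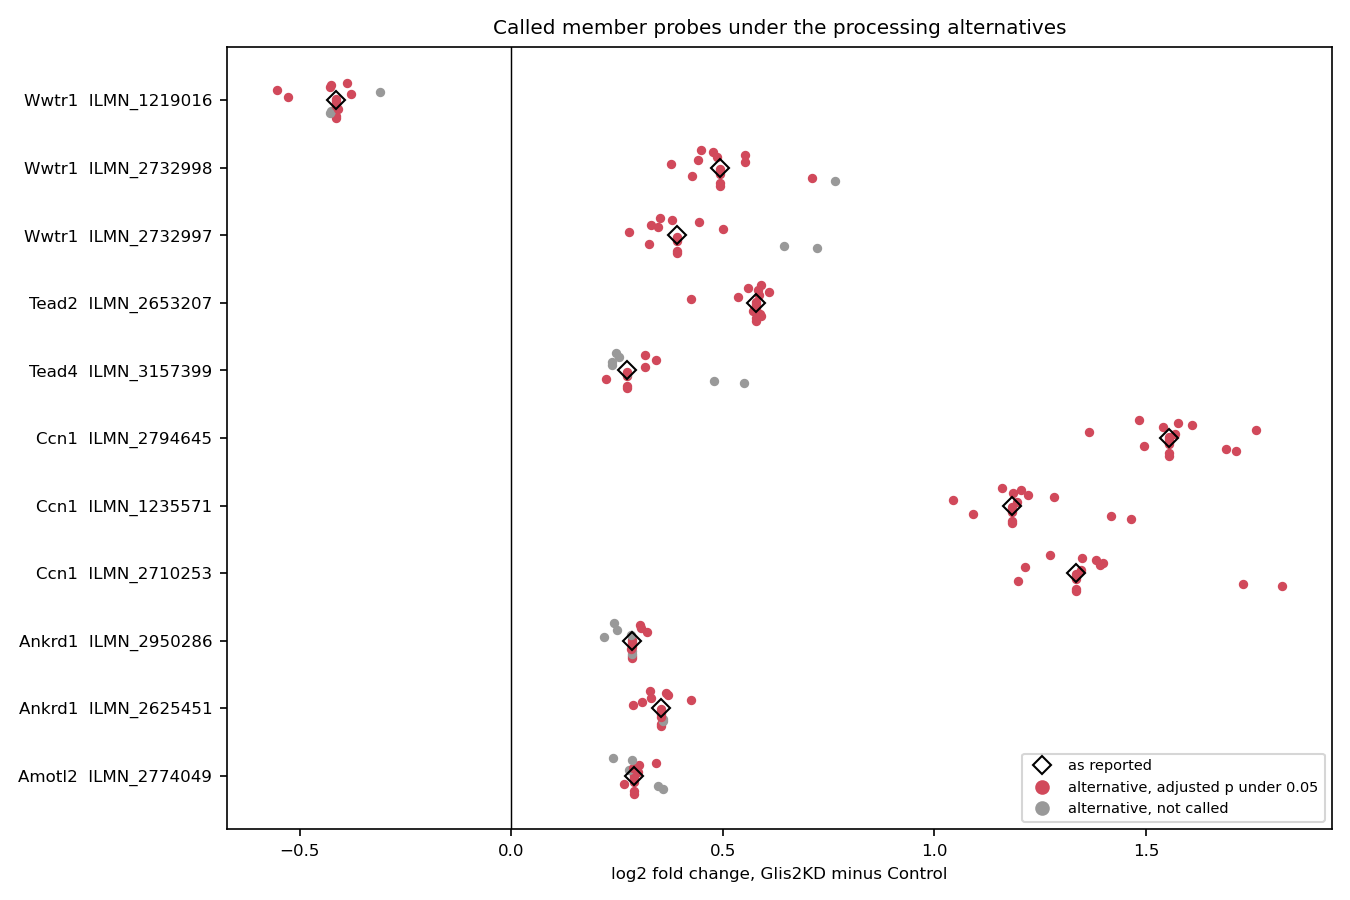
Log2 fold change (knockdown minus control) of the 11 called probes as reported (open diamonds) and under each processing alternative (dots, red where called and grey where not). The Ccn1 and Tead2 probes were called under each alternative, and no probe changed sign.

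Among other known targets of YAP and TEAD, more fell than rose. In a published target signature without the genes above, 17 of 18 genes were measured, each by its brightest probe, and 11 were above background: 1 rose, 6 fell and 10 were not called. Over the array, with 1 probe per gene, 22% of genes were called, 10.9% higher and 11.1% lower, and of those above background 42.3%, 20.8% higher and 21.5% lower. The share of the signature that fell was thus above the background share, and its median log2 fold change was -0.08, against 0.004 for all genes. This list too was chosen with earlier results of these data known. The receptor tyrosine kinase Axl had 849, 881 and 903 on the knockdown arrays, against 7339, 7496 and 6929 on the control arrays, and fell by 3.05 ± 0.081 on the log2 scale (SE; limma's adjusted p = 1.44e-17).

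Nt5e, the ectonucleotidase CD73, had 121, 121 and 123 in the knockdown, all under the background limit, against 433, 436 and 394 in control, which makes it at least 3.07-fold lower (limma's adjusted p = 1.91e-13), and its other probe was called lower too. Gadd45a, a growth arrest protein, had 2138, 1753 and 1956 in the knockdown, against 3525, 3368 and 4202 in control, and fell by 0.92 ± 0.096 (SE; limma's adjusted p = 1.82e-07). The exception in direction was Rbms3, an RNA-binding protein, which had 479, 391 and 445 in the knockdown, against 116, 108 and 109 in control, all 3 under the limit, and was at least 3.19-fold higher (limma's adjusted p = 1.27e-13). That rise rests on 1 of its 6 probes. The other 3 genes that fell, Crim1, Nuak2 and Ptpn14, had log2 fold changes of -0.70, -0.65 and -0.29. Ptpn14, a phosphatase that binds YAP, was not called when control replicate 1 or knockdown replicate 1 or 3 was left out (limma's adjusted p = 0.0680, 0.0686 and 0.0773), nor with the most frequent intensity subtracted, after normexp correction or relative to neighbouring genes (limma's adjusted p = 0.0775, 0.0879 and 0.0601). Without control replicate 2 or knockdown replicate 2, Ccdc80 was also called higher (limma's adjusted p = 0.0237 and 0.0261), which made 2 higher genes.

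Transcripts of the Hippo cascade itself changed in both directions. Of 24 kinases, scaffolds and polarity proteins 23 were measured, 18 of them above background. Of the 23, 6 rose, 3 fell and 14 were not called, and their median log2 fold change was -0.02. All called genes were among the 18 above background. Of all genes 10.9% rose and 11.1% fell, and of genes above background 20.8% rose and 21.5% fell. Calls in both directions were thus common in that background too. The kinases Map4k4 and Taok3, which can activate LATS, rose: Map4k4 had 3882, 3785 and 3996 in the knockdown, against 2261, 2251 and 2077 in control, and Taok3 had 596, 591 and 579, against 335, 353 and 333. Their log2 fold changes were 0.82 ± 0.081 and 0.79 ± 0.080 (SE; limma's adjusted p = 7.58e-08 and 1.11e-07). A dimmer probe of Map4k4 was called higher as well, whereas the 2 dimmer probes of Taok3, close to the limit, were not called. The MST-binding tumour suppressor Rassf1 rose by 0.70 and Wwc2, a KIBRA family scaffold, by 0.62, each on all 3 of its probes (limma's adjusted p for the brightest probes = 1.58e-06 and 8.80e-06). Mob1b, a LATS coactivator, and the polarity protein Scrib also rose, by 0.37 and 0.41.

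Sav1, the scaffold of the MST kinases, fell by 0.51, the polarity protein Dlg5 by 0.42 and the kinase Taok1 by 0.27 on the log2 scale. The call of Taok1 was lost without control replicate 2, control replicate 3, knockdown replicate 2 or knockdown replicate 3 (limma's adjusted p from 0.0691 to 0.169), and Mob1b and Taok1 were not called relative to neighbouring genes (limma's adjusted p = 0.331 and 0.273). The LATS kinases were near or under the background limit: Lats1 had 119, 128 and 137 in the knockdown, against 141, 153 and 144 in control (log2 fold change -0.19, limma's adjusted p = 0.172), and Lats2, which is also a YAP target, had 136, 126 and 137 in the knockdown, against 143, 139 and 139 in control (log2 fold change -0.08, limma's adjusted p = 0.673). Nf2 and Amot had means under the limit.

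Of the 4 Vestigial-like cofactors, which bind TEAD in place of YAP, Vgll3 rose. It had 492, 447 and 443 on the knockdown arrays, against 201, 235 and 222 on the control arrays, a 2.10-fold rise with no overlap (limma's adjusted p = 3.43e-09). Its other probes were under the limit. Vgll4 had 527, 496 and 559.9, against 439, 464 and 607 in control, and was not called. Of 3 other CCN genes measured, Ccn5, which lacks a domain that Ccn1 and Ccn2 share, fell: it had 110.2, 115 and 114.5 in the knockdown, all under the limit, against 206, 178 and 188 in control, and was thus at least 1.39-fold lower (limma's adjusted p = 4.86e-07). Ccn4 had a log2 fold change of -0.16 that was not called, and Ccn3 had a mean under the limit.

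**Figure D4:**
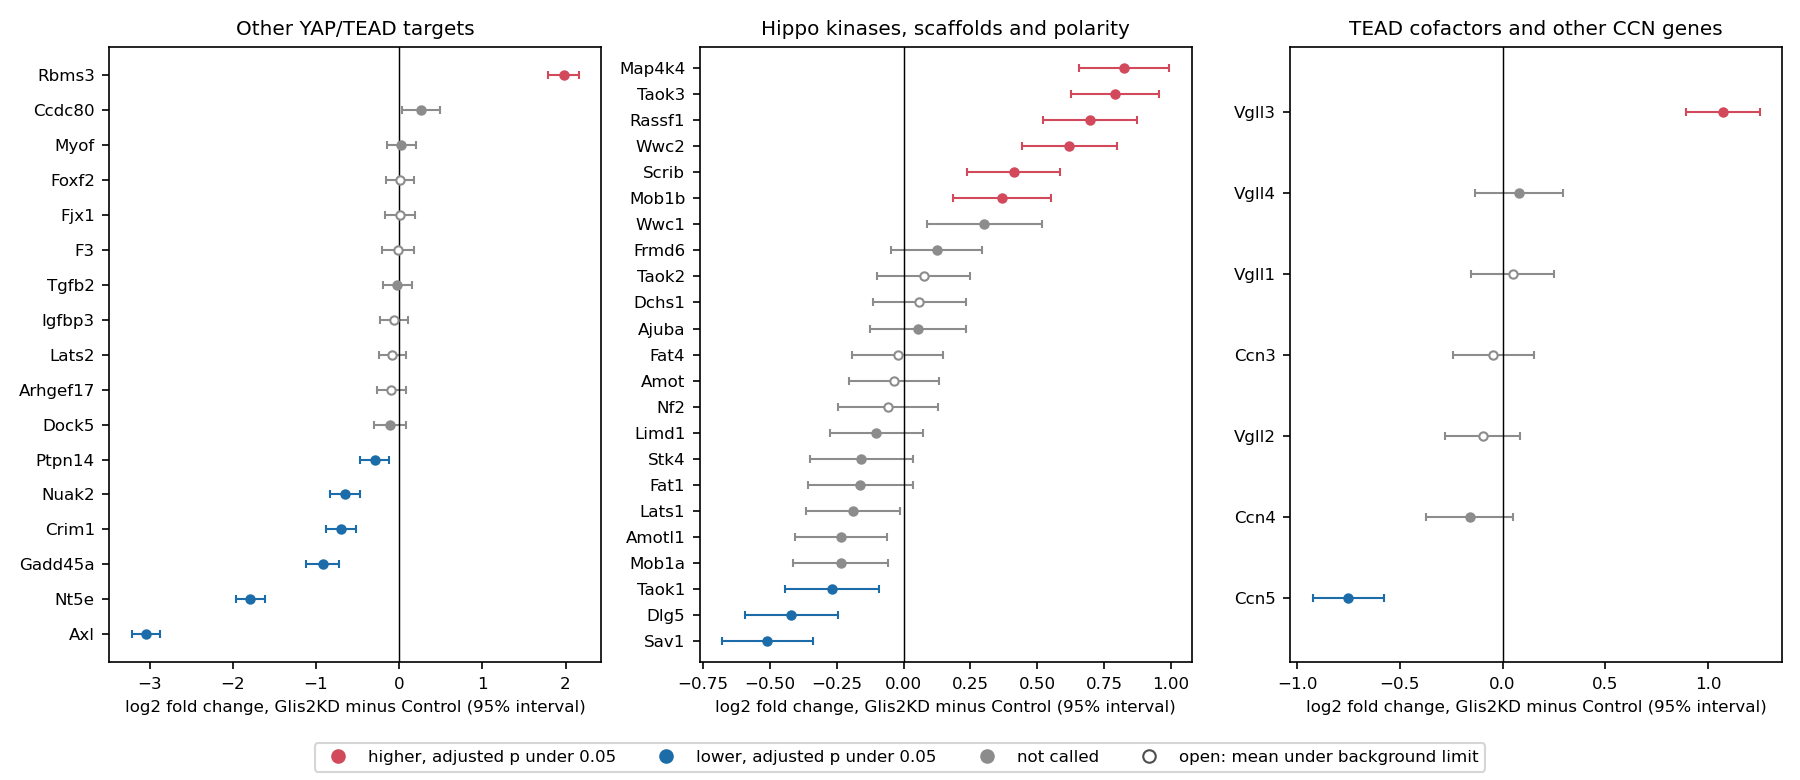
Log2 fold change of Glis2 knockdown minus control with 95% intervals for the other genes of the pathway, each by its brightest probe; the panels hold other YAP and TEAD targets, Hippo genes, and TEAD cofactors with other CCN genes, each with its own x axis. In the target panel Rbms3 alone was called higher and 6 genes were called lower.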

How the data were processed

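RNA from 6 samples of immortalized proximal tubular cells, labelled with Cy3, was hybridised to an Illumina mouse array; per the labels' protocols RNA was extracted with Trizol and cleaned on a column with DNase. The deposited table gives a linear intensity for each probe on each array. How the authors made these intensities is not stated in the sources used here. Judged from the deposited values, the arrays had been brought to 1 distribution (log2 medians within 0.00029) without background subtraction. Probes were named from GEO's platform annotation (34885 with 1 symbol, 18 with several, 10378 with none), and 34807 matched RefSeq by Entrez identifier.

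Intensities were floored at 16, which altered 0 values, and log2 transformed. The test was limma 3.58.1 (R 4.3.3; lmFit, eBayes), with Benjamini-Hochberg adjustment over all probes. The background limit is the most frequent intensity plus 3 times the SD estimated below it. Where a whole group lay under it, the limit took that group's place and the fold is a lower bound. Gene lists were read by each gene's brightest probe. Named genes were all member probes, Glis2, up to 4 called genes per pathway list by smallest p, and the 3 genes most like Ccn1; other list genes were named after their values were seen. The members and lists were chosen with earlier results of these data known. Samples of the same replicate number did not deviate together (r = -0.09, -0.04 and -0.05), so the number served as a block only in an alternative. The fit was tested on simulated data over 45281 probes, built from the knockdown and control arrays with 50 probes changed at each size, and it recovered 0% of changes of 0.25, 24% of 0.5, 96% of 1 and 100% of 2 on the log2 scale. In the data more probes changed, which makes the adjustment less strict. The number of arrays limits the precision.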

Additional observations from a re-analysis of the deposited data

How the results depend on the processing

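Of the 11 called probes, 4 (3 of Ccn1 and that of Tead2) kept their call under all alternatives run, and 7 lost it under at least 1. Of the 10 probes not called, 2 were called under at least 1 alternative (Ccn2 ILMN_1238215 and Tead1 ILMN_1218956). Called probes kept their sign throughout. With the most frequent intensity subtracted, 4 member probes were higher and 0 lower, and 3437 of all probes were called, against 7065 as reported. After normexp correction these were 5, 0 and 4509. With 1 probe per gene, which leaves 10 member probes, 4 were higher and 4291 genes were called. Relative to neighbouring genes, 2 member probes were lower (Wwtr1 ILMN_1219016 and Tead1 ILMN_1218956) and 2 signature genes higher. With an offset of 50, 5 Hippo genes were lower, against 3. The setting with 1 probe per gene tests fewer probes by construction, and for the others the cause was not tested.

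Leaving out 1 array at a time gave 7 to 9 member probes higher and 0 to 1 lower, 6022 to 6521 probes called in all, 1 to 2 signature genes higher and 5 to 6 lower, and 6 to 7 Hippo genes higher and 2 to 4 lower. With the replicate number as a block, 10 member probes were higher, 1 was lower and 6790 probes were called in all, and the samples share only a number. Tead1 ILMN_2607207 and Tead4 ILMN_2487695 were under the background limit on every array, and Tead3 lay close to it, which limits what these probes can show. Detection p-values and scanner output were not used here.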

Other observations

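The 3 genes above background whose pattern over the 6 arrays was most like that of Ccn1 were Tnfaip3, an inhibitor of NF-kappaB, Tfrc, the transferrin receptor, and Inhba, an activin subunit. Likeness was the root mean square difference in log2 intensity after the control mean of each gene was subtracted, computed against 9641 genes, and it was 0.15, 0.16 and 0.17. Tnfaip3 had 2175, 2117 and 2248 on the knockdown arrays, against 714, 920.2 and 705 on the control arrays. Tfrc had 3086, 2926 and 2601 in the knockdown, against 828, 1207 and 960 in control, and Inhba had 4821, 5053 and 5623, against 1368, 1738 and 1728. In all 3 genes, as in Ccn1, the knockdown arrays lay above the control arrays with no overlap. Since the measure follows the difference between the groups, it says little about variation within them.

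Of the 12 signature genes with a RefSeq promoter window, GGAATG occurred in those of Lats2, Axl, Crim1 and Ptpn14, or 33.3%, against 16.6% of all genes. As the signature lists known targets, these shares do not measure an enrichment. Axl, Crim1 and Ptpn14 fell in the knockdown, whereas Ccn1, Ankrd1 and Amotl2, whose windows also hold it, rose.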
